A study of Mus musculus with 23 samples.

Results

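Secreted products of the inflammatory and acute phase response were followed in TM4 cells, an immortalized line of mouse Sertoli cells, after exposure to 5 plasticizers. These were 10 of the 20145 named genes on the array, Saa3, Lcn2, Ccl2, Ccl7, Ccl5, Cxcl10, Cxcl1, Cxcl12, Cxcl5 and Il6. Their probes were found through the RefSeq transcript listed for each probe. They were chosen as a group with their differences from DMSO on these same arrays already known. Their differences are therefore given below as a description with a standard error or 95% interval and no p-value, and the number that passed the call rule is stated beside the share of all genes that did.

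Cells received 100 µM of one compound for 48 h with 1% DMSO as the solvent, and the control cells received 1% DMSO alone. The compounds were MEHP (mono(2-ethylhexyl) phthalate, the active metabolite of the phthalate DEHP), DINCH (diisononyl cyclohexane-1,2-dicarboxylate), DOM (dioctyl maleate), BDB (1,4-butanediol dibenzoate) and DOS (dioctyl succinate). Each group held 4 arrays, of 4 biological replicates by the study's methods, except DOS with 3, and the 23 arrays lay on 3 slides. One culture line was used throughout, so the replicates show the spread between cultures of TM4 and not between animals. DMSO, DOM and DOS arrays always had position number 2 or 4 on the slide and MEHP, BDB and DINCH arrays number 1 or 3. For the last 3 compounds position number and treatment therefore cannot be told apart in a comparison with DMSO. Arrays of 1 slide could share a number, as MEHP and DINCH replicate 1 did on slide 1, so the number gives only part of an array's place.

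Levels are log2 signals relative to the array's 75th percentile of signal (204.6 to 350.7 intensity units before scaling), so that a level of 0 is the 75th percentile and a difference of 1 is a doubling. Between 43.4% and 52.2% of spots per array were well above background and none was saturated. Among the 15 Sertoli cell markers, Dmrt1, Gata4, Inha, Inhbb and Kitl were well above background on every array, whereas Cldn11, Fshr, Gata1 and Wt1 were so on none. Of the 11 macrophage markers on the array, C1qb, Cd14, Csf1r and Itgam were above background on every array, Aif1 and Fcer1g on 22 of 23, and Ptprc, Adgre1, Lyz2, Tyrobp and C1qa on none. Of 6 endothelial markers 2 (Kdr and Pecam1) were above background on every array and 4 on none. Of 8 germ cell markers 1 (Prm1) was so on every array, Tnp1 on 20 and 4 on none, and of 7 Leydig cell markers 1 (Cyp17a1) was so on every array and 5 on none. Of 5 peritubular myoid markers 3 (Acta2, Cnn1 and Tagln) were so on every array and 1 (Myh11) on none.

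Serum amyloid A3 (Saa3) and lipocalin 2 (Lcn2) are acute phase proteins made outside the liver as well as in it, and chemokines are small secreted proteins that draw leukocytes along a gradient through G protein-coupled receptors. In many cell types cytokine and Toll-like receptor signals raise these genes through NF-kappaB, C/EBP and STAT transcription factors. Sertoli cells support germ cells, form the blood-testis barrier and help to keep the seminiferous epithelium shielded from the immune system.

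The sequence before the start of the gene was available for 6 of the 10 genes (Saa3, Lcn2, Cxcl10, Cxcl1, Cxcl12 and Il6) in RefSeq, build GRCm38.p6, and 3 promoters are shown. Saa3 and Cxcl10 were the genes furthest below DMSO with DOM, and Cxcl1 was above DMSO with DOM and shares a motif with Cxcl10. The 3 were picked with these directions known. The 250 bases upstream of each start are written 5′ to 3′ on the strand of the gene, with matches to any of 4 motifs in capitals. The regions are chr7:46715677-46715926 on the minus strand for Saa3, chr5:92348890-92349139 on the minus strand for Cxcl10 and chr5:90890995-90891244 on the plus strand for Cxcl1.
Saa3: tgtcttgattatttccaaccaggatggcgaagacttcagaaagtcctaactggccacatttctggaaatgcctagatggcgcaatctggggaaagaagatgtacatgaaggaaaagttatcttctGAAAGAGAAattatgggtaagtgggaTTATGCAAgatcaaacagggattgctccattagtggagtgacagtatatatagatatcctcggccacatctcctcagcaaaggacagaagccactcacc
Cxcl10: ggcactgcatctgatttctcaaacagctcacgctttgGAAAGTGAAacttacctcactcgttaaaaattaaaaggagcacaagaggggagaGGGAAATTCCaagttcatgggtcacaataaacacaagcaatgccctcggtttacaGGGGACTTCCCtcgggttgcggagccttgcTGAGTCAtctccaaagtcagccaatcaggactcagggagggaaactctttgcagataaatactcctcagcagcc
Cxcl1: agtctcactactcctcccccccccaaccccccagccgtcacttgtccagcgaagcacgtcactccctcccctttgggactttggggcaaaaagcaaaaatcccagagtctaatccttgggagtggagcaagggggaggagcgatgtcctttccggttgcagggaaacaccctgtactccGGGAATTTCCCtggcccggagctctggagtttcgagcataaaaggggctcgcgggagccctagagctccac
In Saa3 the capitals mark a match to GAAANNGAA (the core of an interferon-stimulated response element) 125 to 117 bases before the start and a match to TTNNGCAA (a C/EBP motif) 99 to 92 bases before it. In Cxcl10 they mark GAAANNGAA at 213 to 205 bases, matches to the kappaB consensus at 159 to 150 and 104 to 94 bases, the latter holding overlapping matches, and TGANTCA (an AP-1 motif) at 74 to 68 bases. In Cxcl1 the only matches were overlapping kappaB matches 71 to 61 bases before the start. Searched on both strands of 32851 promoters of the same length, the kappaB consensus was found in 7.25%, TTNNGCAA in 9.56%, GAAANNGAA in 7.13% and TGANTCA in 6.75%. Among the 6 promoters of the group, the kappaB consensus was in 3 (Cxcl1, Cxcl10 and Il6), TTNNGCAA in 3 (Il6, Lcn2 and Saa3), GAAANNGAA in 2 (Cxcl10 and Saa3) and TGANTCA in 2 (Cxcl10 and Il6). Such matches describe letters in the sequence and do not show that a factor binds there.

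Across the compounds the 10 genes did not move as a block. A gene was tested where its probe was well above background on every array of at least 1 group and at or over the 20th percentile of signals. The call rule was a limma adjusted p below 0.05 together with a difference of more than 1.5-fold. Of the 10 genes, 8 were tested in each comparison with DMSO, and Il6 also with BDB, while Cxcl5 was never tested. MEHP called 1 of 8 (Saa3, lower), against 1.53% of all tested genes. DINCH called 5 of 8, with Ccl2, Ccl7, Ccl5 and Cxcl10 higher and Saa3 lower, against 6.97% of all genes. DOM called 5 of 8, with Cxcl1 and Cxcl12 higher and Saa3, Cxcl10 and Ccl5 lower, against 18.6% of all genes called in either direction and 9.76% called lower. BDB called 0 of 9 and DOS 0 of 8, against 0% of all genes with each. At an unadjusted p below 0.05, limma counted 2 of 9 genes with BDB and 2 of 8 with DOS, beside 1953 of 11964 and 756 of 11932 genes overall. The median difference of the tested genes was −0.19 with MEHP, 0.45 with DINCH, −0.29 with DOM, −0.01 with BDB and −0.08 with DOS, on the log2 scale. All 5 comparisons share the same 4 DMSO arrays, and because the genes were chosen on these contrasts nothing is read from the shares called. Where arrays of a compound are said below to lie all beyond the DMSO arrays, this too is a description. The share of all tested genes so separated from DMSO was counted only for DOM arrays below DMSO, where it was 20.4%.

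**Figure D1:**
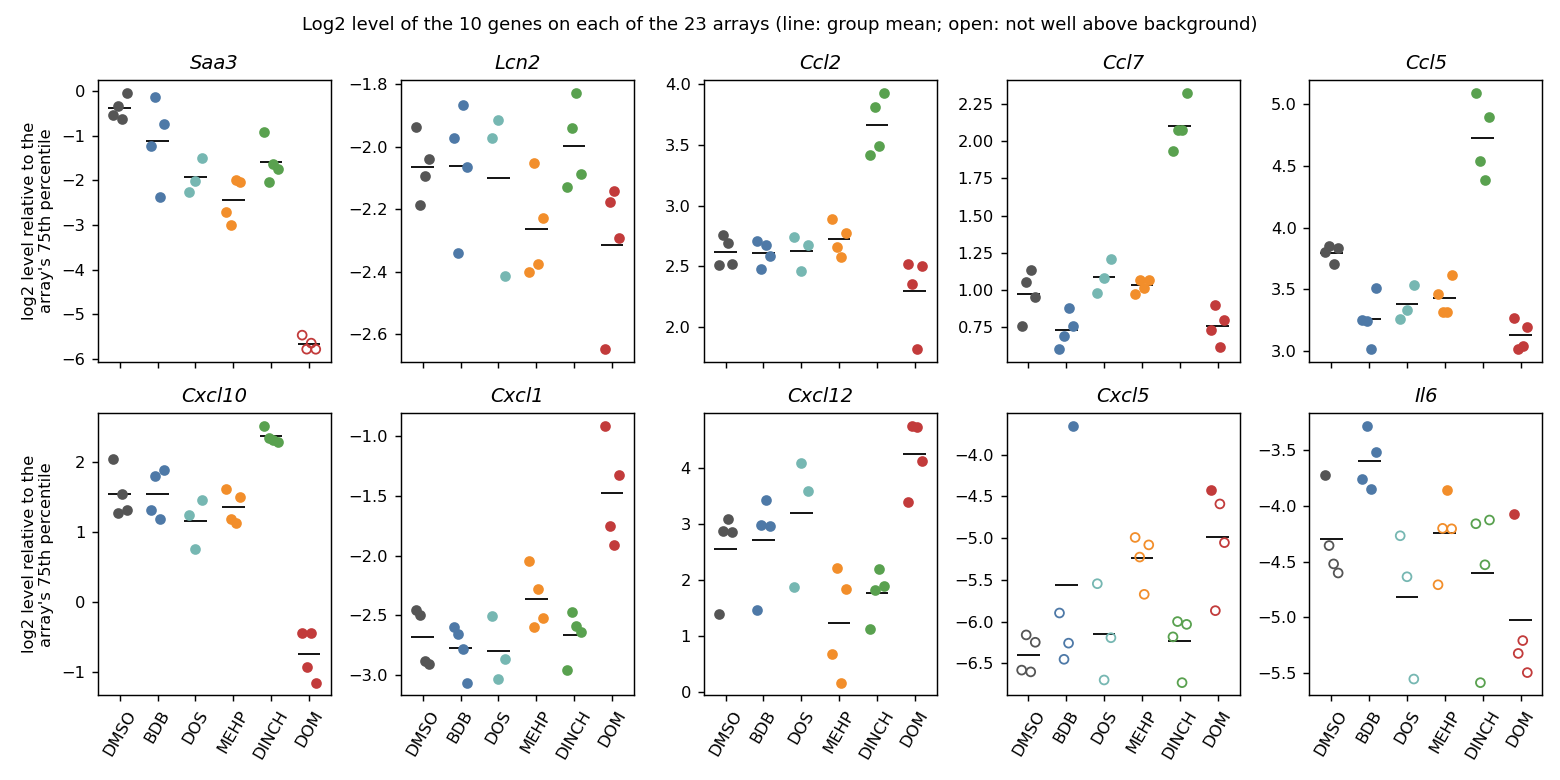
Log2 level relative to the array's 75th percentile (y axis, a separate scale for each gene) of the 10 genes on the 23 arrays, by group on the x axis. Points are arrays, lines group means, and open points arrays on which the probe was not well above background. The 4 DOM arrays lie below the DMSO arrays for Saa3, Cxcl10 and Ccl5 and above them for Cxcl1 and Cxcl12, and the 4 DINCH arrays lie above them for Ccl2, Ccl7, Ccl5 and Cxcl10.

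The mean of Saa3 was lower than in DMSO with MEHP, DINCH, DOM, BDB and DOS alike. The order of mean levels from high to low was DMSO, BDB, DINCH, DOS, MEHP and DOM. On the DMSO arrays its log2 levels were −0.52, −0.34, −0.61 and −0.03, and on the DOM arrays they were −5.47, −5.79, −5.65 and −5.79. On no DOM array was the probe well above background, whereas it was on the 19 other arrays. The DOM levels are therefore signals near background and do not measure how low the gene was. Taking the dimmest detectable signal of each DOM array as the level there, Saa3 was at least 17.7-fold lower with DOM. The measured difference was −5.30 (SE 0.14), and on the DOM side this error holds only the spread of signals near background. RNA was measured in bulk, so fewer cells of a type and less RNA per cell cannot be told apart here or below.

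The intermediate groups overlapped one another. MEHP levels of Saa3 were −2.72, −2.99, −1.98 and −2.03, all below the lowest DMSO array, a difference of −2.06 (95% interval −2.60 to −1.51, n = 4 and 4) or 4.16-fold. DINCH levels were −0.91, −2.03, −1.62 and −1.75, a difference of −1.21 (SE 0.23) or 2.31-fold lower. DOS levels were −2.25, −2.01 and −1.49. These 3 arrays also lay below all 4 DMSO arrays, and the difference was −1.54 (95% interval −2.02 to −1.07) or 2.92-fold, which did not pass the call rule in a comparison that called no gene. Only BDB overlapped DMSO, with levels of −1.22, −0.13, −2.37 and −0.74 and a difference of −0.74 (95% interval −1.64 to 0.16). The spread of the BDB arrays (SD 0.95) exceeded that of DMSO (SD 0.26), and from BDB to MEHP each group overlapped its neighbour in the order of means. Within the slides, Saa3 was lower than DMSO by the mean of each slide with every compound, from −5.76 to −5.11 with DOM, −2.33 to −1.51 with MEHP, −1.66 to −0.39 with DINCH, −0.78 to −0.70 with BDB and −1.73 to −1.72 on the 2 slides that could be compared with DOS.

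Background correction set the size of these differences. With the normexp correction, which adds an offset of 50 to every signal, Saa3 differed from DMSO by −1.91 with DOM, −1.19 with MEHP, −0.80 with DINCH and −0.93 with DOS, and then passed the call rule with DOS too. Lcn2, which binds bacterial siderophores and is often induced together with the amyloid A genes, showed no comparable difference. Its levels lay between −2.19 and −1.94 on the DMSO arrays and between −2.65 and −1.83 on all others. The difference was −0.25 (SE 0.13) with DOM and −0.20 (SE 0.10) with MEHP, and closer to 0 with DINCH (0.07), BDB (0.00) and DOS (−0.04).

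Ccl2, Ccl7 and Ccl5, whose genes all lie on chromosome 11, encode CC chemokines. CCL2 and CCL7 draw monocytes through CCR2, and CCL5 draws T cells and monocytes. All 3 were higher with DINCH than on any other array of the series. Ccl2 levels were 3.42, 3.81, 3.49 and 3.93 with DINCH against 2.52, 2.76, 2.69 and 2.52 with DMSO, a difference of 1.04 (95% interval 0.74 to 1.35) or 2.06-fold. Ccl7 levels were 1.93, 2.08, 2.08 and 2.33 with DINCH against 0.76, 1.05, 1.13 and 0.95 with DMSO, a difference of 1.13 (SE 0.12) or 2.19-fold. Neither gene overlapped between the groups, and the share of all genes so separated was not counted for DINCH.

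For Ccl5 the compounds parted in opposite directions. DMSO levels were 3.80, 3.85, 3.71 and 3.83, and DINCH levels were 5.09, 4.54, 4.38 and 4.90, a difference of 0.93 (SE 0.15) or 1.90-fold. DOM levels were 3.27, 3.02, 3.05 and 3.20, a difference of −0.66 (SE 0.10) or 1.58-fold lower. Every array of the other 3 groups was also below every DMSO array. Their differences were −0.54 (SE 0.11) with BDB, −0.42 (SE 0.10) with DOS and −0.37 (SE 0.09) with MEHP, none of which passed the call rule. Ccl2 with DOM was −0.33 (SE 0.16), with 3 of 4 arrays below every DMSO array and the lowest, replicate 3, at 1.82. Ccl7 with DOM was −0.21 (SE 0.11), and with MEHP, BDB and DOS the differences of Ccl2 and Ccl7 lay between −0.24 and 0.12.

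The position number of an array moved with DINCH, so DINCH was set against BDB and MEHP, which had the same position numbers. DINCH arrays had been used in choosing the genes, so this too is a description, and a part of position was not tested. Ccl2 was higher with DINCH by 1.05 over BDB and 0.94 over MEHP, Ccl7 by 1.37 and 1.07, Ccl5 by 1.47 and 1.30, and Cxcl10 by 0.82 and 1.01. For each of the 4 genes all 4 DINCH arrays were above all BDB and all MEHP arrays, and the share of all genes so separated was not counted. Saa3 was different. The mean with DINCH minus that with BDB was −0.46 (SE 0.42), with overlapping arrays, and DINCH was higher than MEHP by 0.85 (SE 0.28).

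Cxcl10, Cxcl1, Cxcl12 and Cxcl5 encode CXC chemokines with different receptors. CXCL10 is induced by interferons and draws activated T cells through CXCR3, CXCL1 and CXCL5 draw neutrophils through CXCR2, and CXCL12 is a largely constitutive ligand of CXCR4 and of the scavenger receptor ACKR3. Cxcl10 was lowest with DOM, at −0.43, −0.93, −0.44 and −1.15 against 2.04, 1.27, 1.55 and 1.31 with DMSO. This was a difference of −2.28 (SE 0.22) or 4.86-fold. DINCH levels were 2.52, 2.35, 2.32 and 2.29, a difference of 0.82 (SE 0.17) or 1.77-fold higher. Every DINCH array lay above every DMSO array, but the margin over DMSO replicate 1 was small, and the gene no longer passed the call rule without DMSO replicate 3, with detection required on 1 array only, or without the filter on dim probes. Levels with MEHP, BDB and DOS overlapped those of DMSO, with differences of −0.19, 0.01 and −0.39.

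Cxcl1 moved the other way with DOM. Its levels were −0.91, −1.75, −1.91 and −1.32 with DOM against −2.45, −2.50, −2.89 and −2.91 with DMSO, a difference of 1.21 (SE 0.22) or 2.32-fold. Under the normexp correction this difference was 0.63 and was still called. No other compound gave a difference above 0.32, which was the value with MEHP. Of the promoters printed above, which were picked with these directions known, those of Cxcl10 and Cxcl1 held kappaB matches. A part of NF-kappaB in either difference was not tested.

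Cxcl12 varied widely within groups, with an SD of 0.78 in DMSO and 1.16 in DOS. DOM levels were 3.40, 4.76, 4.74 and 4.12 against 1.39, 2.87, 3.08 and 2.86 with DMSO, a difference of 1.70 (SE 0.41) or 3.26-fold. The 4 DOM arrays lay above all DMSO arrays. In 5 of the 6 groups replicate 1 was the lowest array, at 1.39 in DMSO, 1.46 in BDB, 1.88 in DOS, 1.13 in DINCH and 3.40 in DOM. In MEHP it was replicate 3, at 0.16. Without DMSO replicate 1 the DOM difference was 1.32 and still called, while without the filter on dim probes it was not called, and the DINCH difference changed from −0.79 (95% interval −1.63 to 0.04) to −1.18 and became called. With the replicate number as a block, the DINCH difference stayed at −0.79 and was called. MEHP levels of 0.68, 2.21, 0.16 and 1.84 gave −1.33 (95% interval −2.50 to −0.16), not called. The second Cxcl12 probe on the array gave 1.27 with DOM, −1.14 with MEHP and −1.19 with DINCH, and was likewise called with DOM alone, although only 3 of its 4 DOM arrays were above every DMSO array.

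Cxcl5 and Il6 were near the background. Cxcl5 was well above it on 2 of 23 arrays (BDB replicate 4 and DOM replicate 1), so no difference is given. Il6, the interleukin that drives the acute phase response of the liver through STAT3, was above background on all 4 BDB arrays and on 1 array each of DMSO, DOM and MEHP. It entered the BDB comparison only through those BDB arrays, with levels of −3.85 to −3.28 against −4.60 to −3.72 with DMSO, and the difference of 0.70 (SE 0.20) was not called.

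**Figure D2:**
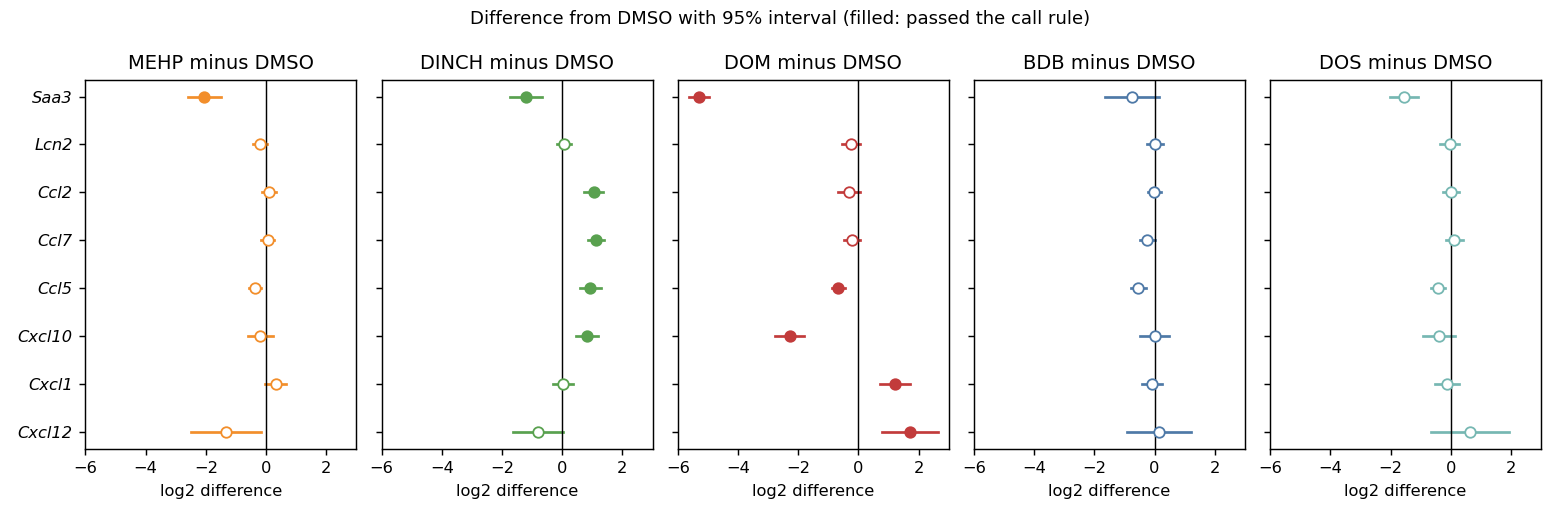
Difference of each compound from DMSO (x axis, log2) for the 8 genes measured in all 5 comparisons. Points are differences of group means, bars 95% intervals from limma, and filled points passed the call rule. For Saa3 with DOM the probe was well above background on no DOM array, so its point and bar rest on near-background signals. Saa3 lies left of 0 in all 5 panels, from −0.74 with BDB to −5.30 with DOM, while Ccl2, Ccl7, Ccl5 and Cxcl10 lie right of 0 with DINCH.

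Within slides the DOM differences that passed the call rule kept their direction on all 3 slides. They ran from −2.72 to −1.85 for Cxcl10, −0.73 to −0.64 for Ccl5, 0.78 to 1.59 for Cxcl1 and 1.26 to 2.69 for Cxcl12. The DINCH differences ran from 0.90 to 1.19 for Ccl2, 0.98 to 1.25 for Ccl7, 0.76 to 1.29 for Ccl5 and 0.47 to 0.99 for Cxcl10. Ccl7 with DOM ran from −0.48 to 0.06. Among the 8 tested genes 3 (Saa3, Ccl5 and Cxcl10) had every DOM array below every DMSO array, as did 20.4% of all tested genes.

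DOM and DOS are diesters of the same alcohol that differ in the acid core, a maleate with a carbon-carbon double bond in DOM and a succinate without it in DOS. The 2 compounds shared the dose, time and position numbers. They were the 1 pair of compounds compared for structure. DOM arrays had been used in choosing the genes, so this too is a description. The call rule was passed by 3 of 8 genes, against 13.5% of all genes. Saa3 was at least 6.06-fold lower with DOM than with DOS, with a measured difference of −3.76 (SE 0.18) that became −0.99 under the normexp correction. The difference of DOM minus DOS was −1.89 for Cxcl10 (95% interval −2.41 to −1.37) and 1.33 for Cxcl1 (95% interval 0.77 to 1.89). The other 5 genes were not called. Their intervals were −0.51 to 0.03 for Ccl5, −0.75 to 0.09 for Ccl2, −0.59 to −0.07 for Ccl7, −0.61 to 0.18 for Lcn2 and −0.14 to 2.27 for Cxcl12, so differences of these sizes remain possible. With the replicate number as a block, the Cxcl12 difference of 1.06 became 0.90 and was called. Ccl7 was lower on all 4 DOM arrays than on any DOS array, and the share of all genes so separated was not counted.

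Apart from the treatments, the genes did not follow one another closely. Of the 10 genes, 7 were well above background on all 23 arrays. Over their 21 pairs, the correlation of each array's deviation from its group mean had a median of −0.17, and 7 pairs were above 0. It was highest for Ccl7 with Cxcl12 (r = 0.60) and for Ccl2 with Cxcl1 (r = 0.60), and lowest for Cxcl1 with Cxcl12 (r = −0.63). The points are arrays that share slides and a common scaling, and the values are descriptive.

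Genes around the 10 were described through 7 lists that leave the 10 out. These were acute phase and complement genes, JAK, STAT and C/EBP genes, NF-kappaB subunits and regulators, other chemokines, other inflammatory genes (cytokines, growth factors, adhesion molecules and inflammatory enzymes), receptors of the 10 products, and upstream receptors with their adaptors. Of 170 listed genes 167 were on the array. With DOM 21 of 95 tested list genes were called (11 higher, 10 lower), which is 22.1% against 18.6% of all tested genes. With DINCH it was 10 of 96 (6 higher, 4 lower), or 10.4% against 6.97%. MEHP called 1 of 96, Traf1, an adaptor of tumour necrosis factor receptors, which rose by 0.63 (SE 0.09, limma adjusted p = 0.0157). No list gene was called with BDB or DOS, where limma gave an unadjusted p below 0.05 for 20 and 9 of 96.

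The complement genes C1s1 and C1ra rose with DOM. Among the 6 tested acute phase and complement genes 4 were called, against 18.6% of all tested genes. The list median was 0.69 against −0.03 for all genes. C1s1 rose by 1.47 (SE 0.28, adjusted p = 0.00482) and C1ra by 1.03 (SE 0.17, adjusted p = 0.00233), both encoding proteases of the C1 complex. Saa1 was picked out after its values were seen as a relative of Saa3, and fell by 0.84 (SE 0.18, adjusted p = 0.00853) with all 4 DOM arrays below DMSO.

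The NF-kappaB and JAK, STAT and C/EBP lists mostly stayed below the call rule. Of all tested genes 18.6% were called with DOM and 6.97% with DINCH. With DOM 2 of 26 NF-kappaB genes were called, the inhibitor gene Nfkbia, which rose by 0.63 (SE 0.17, adjusted p = 0.0234), and the ubiquitin-editing feedback gene Tnfaip3, which fell by 0.93 (SE 0.28, adjusted p = 0.0315). With DINCH 1 of 26 was called, Bcl3, an atypical IkappaB protein, which rose by 0.82 (SE 0.11, adjusted p = 0.00427). Of 16 JAK, STAT and C/EBP genes 1 was called with each compound. Cebpg fell with DOM by 0.81 (SE 0.25, adjusted p = 0.0355), and Cebpd, a factor known to act on acute phase genes, rose with DINCH by 0.60 (SE 0.15, adjusted p = 0.0338). The list medians lay between −0.07 and 0.00 for both compounds.

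Among the other chemokines, 2 of 7 tested were called with DINCH, both of them CC chemokines. Beside this count and those that follow, 6.97% of all tested genes were called with DINCH and 18.6% with DOM. Ccl9 rose by 1.18 (SE 0.25, adjusted p = 0.0197), which became 0.51 and was not called under the normexp correction. Ccl6 was above background on all 4 DINCH arrays but on only 2 of 4 DMSO arrays, so it entered the test through the group in which it was high. Its measured difference of 1.54 became 0.46 under normexp and was then not called. With DOM 2 of 6 rose, Ccl17 by 0.74 (SE 0.22, adjusted p = 0.0295) and Cx3cl1 by 0.61 (SE 0.14, adjusted p = 0.0113). Among the other inflammatory genes, calls fell in both directions. With DOM 7 of 17 were called, 3 higher and 4 lower. Spp1 (osteopontin) fell by 1.86 (SE 0.28, adjusted p = 0.00161), while Ptgs2 (cyclooxygenase 2) rose by 1.38 (SE 0.27, adjusted p = 0.0049). Tslp, a cytokine of epithelial cells, was lower by 1.78 (SE 0.53) and called. It was above background on 3 of 4 DOM arrays and so entered the test only through DMSO, where it was high. With DINCH 4 of 17 were called, among them Il15, which rose by 0.99 (SE 0.21, adjusted p = 0.0204; 0.39 and not called under normexp), Il34, which fell by 1.80 (SE 0.29, adjusted p = 0.00848), and Ereg, which fell by 0.78 (SE 0.20, adjusted p = 0.0397).

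Few receptors for the 10 products were measurable. Of 17 on the array 6 were tested. Tlr2, a receptor reported to bind serum amyloid A, fell with DOM by 0.87 (SE 0.11, adjusted p = 0.000621) and with DINCH by 0.68 (SE 0.16, adjusted p = 0.029). Slc22a17, a receptor of lipocalin 2, rose with DOM by 0.80 (SE 0.15, adjusted p = 0.00414). Ackr3, which binds CXCL12, was lower with DOM by 0.73 (SE 0.22) and called. It was above background on 3 of 4 DOM arrays and so entered the test only through DMSO, where it was high. Of 18 upstream receptors and adaptors none was called with DINCH, where 6 had an unadjusted p below 0.05 by limma. Of all tested genes 3672 of 11912 did so with DINCH, a similar share. With DOM, Tlr6 rose by 0.65 (SE 0.10, adjusted p = 0.00203), and Il1rap, the co-receptor of interleukin 1, was above background on all 4 DMSO arrays and none of the DOM arrays and was at least 2.12-fold lower. It entered the test only through DMSO, and under normexp its measured difference of −1.59 became −0.36 and was not called.

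**Figure D3:**
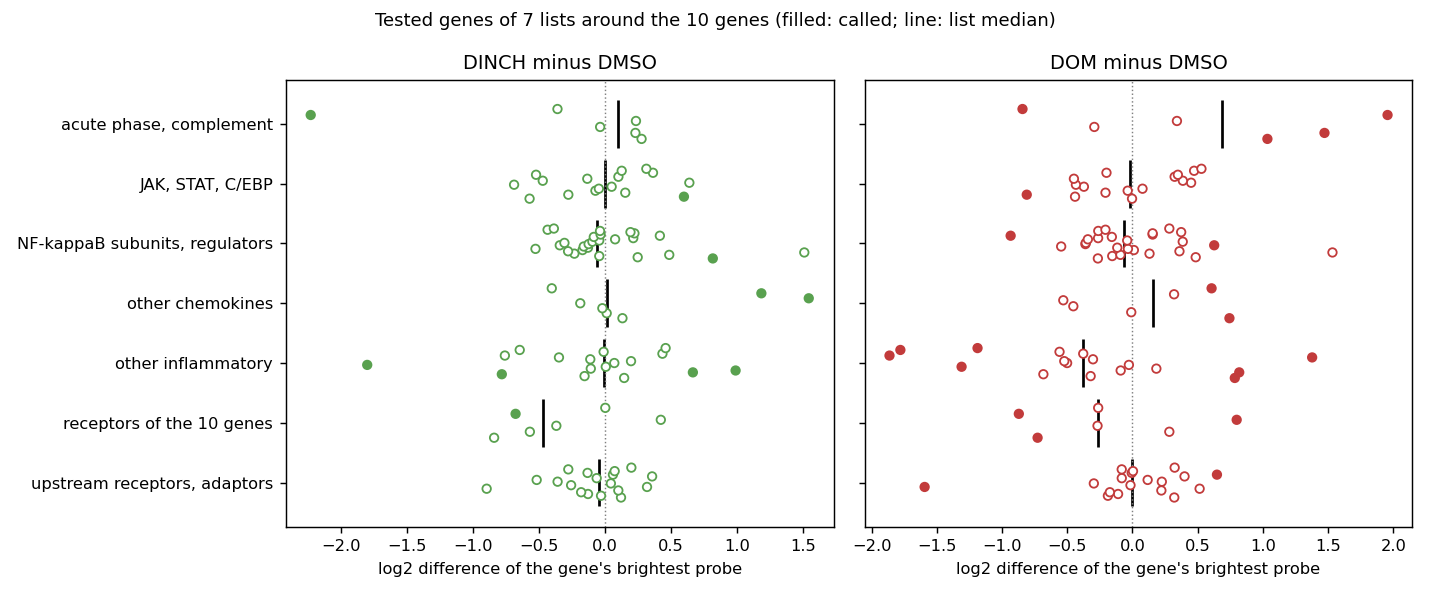
Differences from DMSO (x axis, log2, brightest probe of a gene) of the tested genes of the 7 lists, by list on the y axis, with DINCH (left) and DOM (right). Filled points passed the call rule and vertical lines are list medians. The median of the acute phase and complement genes stands at 0.69 with DOM, while the medians of the NF-kappaB and the JAK, STAT and C/EBP lists lie between −0.07 and 0.00 with both compounds.

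The genes whose log2 levels over the 23 arrays were most like those of Saa3, among 11742 genes above background on every DMSO array, were Dyrk4 (r = 0.951), Sars (0.944), Cox6a2 (0.943), Dennd2d (0.938) and Htra1 (0.933). The DOM arrays carried much of this. Without them, over 19 arrays, the values were 0.905, 0.768, 0.740, 0.672 and 0.687. The differences of Dyrk4, which its selection for likeness to Saa3 partly fixes, were −1.83 with MEHP, −1.42 with DINCH, −1.35 with DOS and −0.39 with BDB, the last 2 not called, and it was at least 5.52-fold lower with DOM. The genes most like the mean of the standardized levels of the 8 measured members were Rtp4 (r = 0.944), Oasl2 (0.931), Apol9b (0.922), Apol9a (0.901) and Igtp (0.896), with values of 0.868 to 0.945 without the DOM arrays. With DINCH these 5 genes were higher than DMSO by 0.77 to 1.22, and with DOM their differences were −1.52 to −0.51, with Igtp not called. Their selection for likeness to the group mean likewise partly fixes these differences and calls. The arrays behind these correlations are grouped by treatment, so r holds differences between group means as well as the spread within groups.

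The summed linear signal of the 15 Sertoli markers was 12.3 to 26.4 on DMSO arrays and 41.6 to 68.1 on DOM arrays, in units of the 75th percentile, and 8.76 to 15.8 on DINCH arrays. Such a sum is weighted to the brightest markers and does not show that the markers rose together. Sox9 was well above background on 2 of 4 DOM and 4 of 4 DMSO arrays, Clu on 1 and 3, and Rhox5 on 3 and 4. Trf went the other way, on 1 DOM array and 0 DMSO arrays. The sum over 11 macrophage markers was 14.8 to 17.4 with DMSO, 13.5 to 18.5 with DINCH and 16.5 to 22.8 with DOM. The sum over 5 peritubular myoid markers was 116.1 to 149.2 with DMSO, 117.6 to 158.1 with DOM, 141.3 to 155.7 with DINCH and 202.8 to 250.8 with DOS. The part of these marker levels in the differences above was not tested.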

How the data were processed

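RNA of TM4 cells was hybridised with 1 dye to Agilent 60-mer mouse arrays (62976 spots, 59305 of them not controls, 55681 probes). The deposited scanner files hold the intensity of each spot on a linear scale, which the authors' scanner software had background-subtracted and detrended but not scaled between arrays. A deposited table holds the authors' log2 values, scaled by the 75th percentile of an array and centred on each probe's median over all samples; it served as an alternative, and each array correlated with its own column at r = 0.998 or more. Here the array's 75th percentile was subtracted from log2 of the processed signal, leaving out flagged outlier spots (102 to 187 on an array) and averaging repeated spots. RefSeq transcripts named 26582 probes with 20145 symbols; where a gene had several probes, the brightest was taken. Each compound was fitted with DMSO alone in limma 3.58.1 (R 4.3.3) with Benjamini-Hochberg adjustment over all tested probes. A probe was tested if on every array of at least 1 group it reached the 20th percentile and was well above background. A fold bound sets one group's mean against the lowest signal well above background on each array of the other. The fits were tested on simulated data. Figures were drawn with matplotlib 3.10.9 in Python 3.11.15.

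The 10 genes and the 7 lists were chosen with earlier results of these data known. Besides the 10 genes, up to 3 called genes with the largest change per list and compound, and the 5 genes most like Saa3 and most like the mean of the group, are named; results for some listed genes are not reported here. Alternatives were quantile normalization, normexp correction (median signal and background, offset 50), other filters on dim probes, outlier spots kept, any probe of a gene, blocks, all groups in 1 fit, a variance trend, the authors' table and leaving out each array. Comparisons within shared position numbers and likeness without DOM were added after the data were seen. Same-numbered arrays deviated together from their group means in every pair for DINCH (r = 0.17 to 0.50), BDB (0.25 to 0.43) and DOS (0.20 to 0.45) with DMSO and for DOM with DOS (0.10 to 0.40). The numbers were therefore taken to pair them in an alternative fit, while the reported differences, errors and calls leave the pairing out. Most same-numbered arrays also shared a slide, so replicate and slide cannot be told apart here. The lowest r of DINCH and of DOS with DMSO was that of replicate 3, whose arrays lay on slide 3 and the DMSO array on slide 2. For DOS this r of 0.199 was hardly below the 0.201 of replicate 4, whose DOS and DMSO arrays shared slide 3. The number of arrays limits the precision. Promoters come from another genome build than the array design, so no probe positions were used. Cell viability and PCR data were not analysed here.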

Additional observations from a re-analysis of the deposited data

Results flagged for a closer look

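Of 50 combinations of gene and group with 4 arrays, 1 held an array far from the other 3. Cxcl12 on DMSO replicate 1 had a log2 level of 1.39, while the other DMSO arrays lay between 2.86 and 3.08. Chance alone marks about 1 in 20 such groups. The same replicate number was also lowest in BDB, DOS, DINCH and DOM, and the reason was not tested.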

How the results depend on the processing

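No difference of the 10 genes changed sign as a called value under any alternative. Calls of the 10 genes stayed within 1.5 times the reported count for DOM (5 to 6, with Cxcl5 in and Cxcl12 out without the filter on dim probes), BDB (0) and DOM against DOS (2 to 4). Without a filter on dim probes, which enlarges the number of tests, MEHP called 0 and DINCH 1 of the 10 genes, and after normexp correction DOS called 1. Leaving out 1 array gave 4 to 6 for DINCH. For the list genes, MEHP called 3 (reported 1) with quantile normalization, a slide block, a replicate block, a fit of all groups or a variance trend, 2 with the authors' table, 0 after normexp or without the filter, and 0 to 3 when 1 array was left out (0 without MEHP replicate 2 or 4). DINCH called 6 (reported 10) after normexp, 0 without the filter, 4 with detection on 1 array, and 5 to 13 when 1 array was left out, lowest without DMSO replicate 2. DOM called 11 (reported 21) without the filter and 13 to 22 when 1 array was left out, lowest without DMSO replicate 1. BDB called 3 (reported 0) with the slide as a block or all groups in 1 fit and 2 with a variance trend. The causes were not tested.

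With the replicate block, the 10 genes gave 1 call with MEHP, 6 with DINCH, 5 with DOM, 0 with BDB and DOS, and 4 in DOM against DOS, and the list genes 3, 13, 22, 0 and 0. Apart from Cxcl12 with DINCH and in DOM against DOS, it changed no call of the 10 genes. For MEHP (r = −0.14 to 0.45) and DOM (0.04 to 0.43), same-numbered arrays did not all deviate together, so there a pairing by number was not shown. The lowest r of each was that of replicate 2, whose arrays lay on slide 1 and the DMSO array on slide 2. Among the named list genes, C1s1, C1ra, Spp1, Ptgs2, Tlr2 and Slc22a17 with DOM were called in all 18 alternatives, while Ccl17 with DOM was called in 8, and Cebpg and Ackr3 with DOM and Cebpd, Ereg and Tlr2 with DINCH in 9. Tslp with DOM was called in 12, with differences from −2.16 to −0.61. Ccl6, Ccl9 and Il15 with DINCH and Traf1 with MEHP, and Il1rap, Ackr3, Ccl17 and Tlr6 with DOM, were among those not called under normexp. Signal near background limits what can be said of Il6, Cxcl5 and Saa3 with DOM.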
